A study of Mus musculus with 16 samples.

Results

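Retinas of mice with oxygen-induced retinopathy (OIR) were compared with retinas of control mice at postnatal day 14 (P14), the earliest age of the series. The comparison was defined by the sample titles and used 4 of the 16 libraries, 2 from OIR mice and 2 from control mice, with every expressed gene. All mice were wild-type C57BL/6J. OIR mice breathed 75% oxygen from day 7 to day 12 and then room air with 21% oxygen, so that they had been back in room air for 2 days at P14, and control mice stayed in 21% oxygen throughout. Each library came from retinal lysate RNA selected for mRNA and sequenced on an Ion Proton instrument. The labels give neither the number of animals or eyes behind a library nor their sex. The p-values thus measure only the spread between libraries, which may in part be technical. That spread was estimated from all 16 libraries, including those of later ages.

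High oxygen in the first weeks of life stops the growth of retinal capillaries and prunes those already formed, because growth factors made by hypoxic glia and neurons are lost. After the return to room air the poorly perfused inner retina becomes hypoxic. Under hypoxia the prolyl hydroxylases that mark hypoxia-inducible factor (HIF) for destruction stop working, and HIF then switches on genes for vessel growth, glucose use and mitochondrial adaptation. Müller glia, the radial support cells of the retina, and astrocytes respond to the same injury with intermediate filaments and cytokine-induced genes.

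The P14 libraries held 26077663 and 31137447 counted reads in OIR and 34252022 and 34570306 in controls, and 19905 of 43280 gene symbols were tested. Rod genes marked all 4 libraries as retina, with a summed level of 60062 and 60714 CPM in OIR against 59351 and 56630 CPM in controls. Levels are in CPM, read counts scaled to a common library size, with TMM factors that correct for differences in RNA composition. RNA of neighbouring tissues differed between the libraries. Of the 23 listed lens genes 3 had no read in either OIR library and 1 had none in either control. The 22 that were tested summed to 48.7 and 53.1 CPM in OIR, against 1698 and 94.8 CPM in control replicates 1 and 2. Markers of cornea and conjunctiva summed to 525 and 3.76 CPM in OIR replicates 1 and 2, against 5.35 and 51.1 CPM in controls, and the corneal keratin gene Krt12 was at 147 and 0.255 CPM in OIR against 0.940 and 2.10 CPM. Pigment cell and smooth muscle genes were high in control replicate 2, with Pmel at 40.5 and 28.5 CPM in OIR against 38.4 and 497 CPM in controls, and Myh11 at 2.49 and 1.78 CPM against 2.58 and 58.1 CPM. Control replicate 2 was also the only P14 library with Xist, which silences an X chromosome in female cells, at 913 CPM, and it had 3 reads of the Y-linked Ddx3y, which the other 3 libraries held at 35.9 to 44.1 CPM. Results are given below without each library and with the summed lens or Y-linked level as a covariate, and beyond that the part of these differences in them was not tested.

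**Figure D1:**
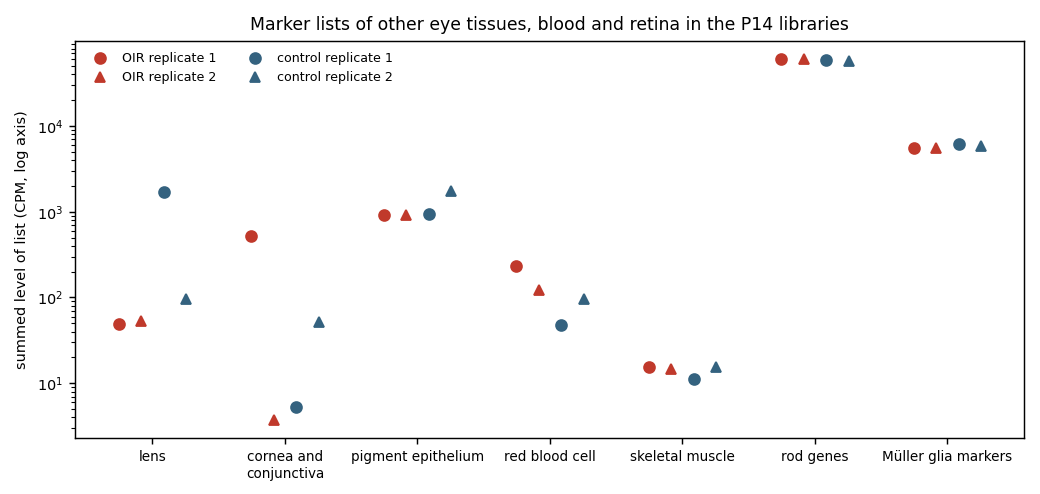
Summed level of marker lists (CPM, log axis) in the 4 P14 libraries, with OIR in red and control in blue and replicates 1 and 2 as circles and triangles. Lens genes stood at 1698 CPM in control replicate 1 and corneal and conjunctival genes at 525 CPM in OIR replicate 1, while rod and Müller glia lists lay close together.

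Few genes were called as different between OIR and control at P14, and those were mainly higher in OIR. By edgeR's quasi-likelihood test with Benjamini-Hochberg adjustment, 144 genes (0.723% of those tested) were higher in OIR and 19 (0.0955%) lower at an adjusted p under 0.05, and these 163 genes (0.819%) are the genes called below. At such shares a list of the sizes used below would mostly hold no called gene, so an empty list says little by itself. Of the higher genes 97 rose by more than 2-fold and 42 by more than 4-fold. Of the lower genes 10 fell by more than 2-fold. The median log2 fold change was 1.31 among the higher genes, -1.04 among the lower genes and -0.01 over all genes tested. In all 163 called genes both OIR libraries lay beyond both controls, which was true of 19.7% of all tested genes in the higher direction and 23.4% in the lower. Each of 4 fits left out 1 P14 library, so that 1 library stood alone in its group. These fits changed both how many genes were called and which. Fewer genes were called higher than with all libraries, except without OIR replicate 2, where more were. Where fewer genes were called in all, fewer called members say little about a list. Without control replicate 1 most genes called lower were not among the 19. Without OIR replicate 2 many genes called higher were not among the 144. All 163 genes kept their direction in these 4 fits, which the separation of the groups made nearly certain beforehand. A pair against a pair allows only 6 arrangements, so an exact permutation test could not go below p = 0.333 and none was run.

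Other fits also ended calls of genes described below. With the lens level as a covariate 63 genes were higher and 10 lower, and Atp13a5, Bag3, BC055402, C3, Casq2, Ccl3, Ccl4, Cdk1, Chrm2, Cp, Dio2, Enpp2, Fgf10, H2-K1, Lama4, Mcm3, Nr4a1, P2rx2, Pgam1, Plaur, Tnf and Vcam1 lost their call (adjusted p from 0.0585 to 0.237). With the Y-linked level as a covariate the counts were 88 and 9, and BC055402, C3, Casq2, Ccl4, Chrm2, Cp, Esm1, Fgf10, Lama4, Mcm3, Nr4a1, P2rx2, Pgam1, Plaur and Tnf lost it (0.0514 to 0.210). Limma-voom gave 123 and 18 and did not call Adm, C3, Casq2, Edn2, Egr2, Esm1, Fgf10, Fgf2, Lad1, Mcm3 and Nr4a1 (0.0514 to 0.195). A fit to the P14 libraries alone gave 250 and 32 and did not call 2610528A11Rik, Casq2, Chrm2, Esm1, Fgf10, H2-K1, Mcm3 and P2rx2 (0.0555 to 0.132).

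**Figure D2:**
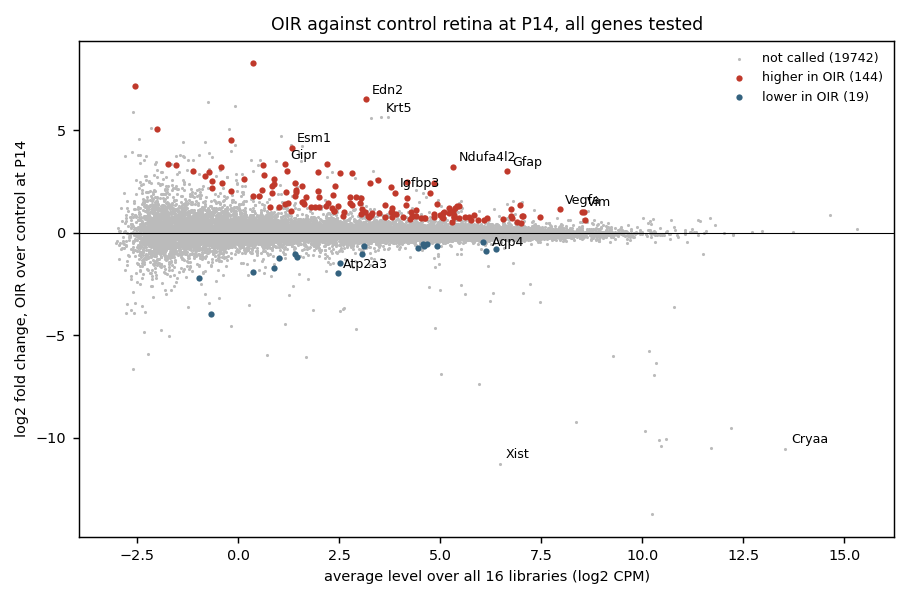
Log2 fold change of OIR over control at P14 against the average level over the 16 libraries (log2 CPM) for the 19905 genes tested, with the 144 higher genes in red and the 19 lower genes in blue. Lens genes such as Cryaa and the X-linked Xist reached changes beyond -10 without a call, and their levels differed widely between the 2 control libraries.

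Genes known as HIF targets were raised in the OIR retina. Of 30 tested HIF target genes 14 were called higher, against the 0.723% of all genes, and 0 lower. Their median log2 fold change was 0.75, and in 28 of the 30 both OIR libraries lay above both controls, against 19.7% of all tested genes. Ndufa4l2, a HIF-induced mitochondrial protein, was at 57.8 and 65.4 CPM in OIR, against 6.396 and 6.75 CPM in controls. The OIR values were thus far above the controls with little spread, a log2 fold change of 3.23 (SE 0.281, adjusted p = 0.000175). Egln3, a prolyl hydroxylase that is itself a HIF target, was at 19.4 and 13.4 CPM in OIR, against 3.13 and 3.03 CPM in controls, a log2 fold change of 2.41 (SE 0.274, adjusted p = 0.000402). OIR replicate 1 was the higher of the OIR pair, and neither came near the controls.

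Adm encodes the vasodilator adrenomedullin and stood at 8.94 and 8.92 CPM in OIR, against 1.31 and 1.04 CPM in controls (log2 fold change 2.93, SE 0.430, adjusted p = 0.00433). Slc16a3, the exporter of lactate from glycolytic cells, was at 113 and 102 CPM in OIR, against 39.5 and 44.0 CPM in controls, and rose by 1.37 (SE 0.174, adjusted p = 0.00123). The mitophagy receptor gene Bnip3 was at 96.7 and 89.4 CPM in OIR, against 44.4 and 37.9 CPM in controls, and rose by 1.18 (SE 0.161, adjusted p = 0.00145). Each of these genes separated the groups, and the spread within a pair was small beside the gap between the pairs. The other called members were Egln1, Vegfa, Pfkfb3, Fam162a, Higd1a, Ero1l, Pdk1, Stc2 and Ak4. Of the HIF subunits and their other regulators 0 of 8 were called, against 0.819% of all tested genes, and their median was -0.07. The prolyl hydroxylase genes Egln1 and Egln3, both called higher, were counted with the targets and not in this list. Hif1a, the oxygen-regulated subunit, was at 403 and 413 CPM in OIR, against 550 and 462 CPM in controls (adjusted p = 0.330). Fewer HIF targets were called in each fit without a P14 library. Over all genes fewer were also called higher, except without OIR replicate 2, where more were. The call of Adm ended without control replicate 2 (adjusted p = 0.0802), while those of Ndufa4l2, Egln3, Slc16a3 and Bnip3 held in all 16 fits without 1 library.

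The promoters of the 5 HIF target genes with the smallest p that had an entry are printed to show where the short HIF recognition core lies in genes that rose. The core was searched as ACGTG or GCGTG on both strands, so that CACGT and CACGC in the printed strand also count. ACGTG is also part of the longer E-box CACGTG, where matches on both strands overlap. Each window runs from 250 bases before to 50 bases after a start listed for the gene, 5′ to 3′ on the gene's strand. The assembly is GRCm38.p6, also called mm10, and capitals mark the matches. The Slc16a3 window lies inside the gene, whose RefSeq start is at 120948484.
Egln3, chr12:54203825-54204124, minus strand: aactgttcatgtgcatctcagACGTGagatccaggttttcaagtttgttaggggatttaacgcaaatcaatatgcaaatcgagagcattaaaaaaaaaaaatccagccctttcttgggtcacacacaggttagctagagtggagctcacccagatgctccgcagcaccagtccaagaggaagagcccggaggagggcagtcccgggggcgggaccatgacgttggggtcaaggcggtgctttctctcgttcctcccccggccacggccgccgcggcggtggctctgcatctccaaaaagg
Slc16a3, chr11:120948817-120949116, plus strand: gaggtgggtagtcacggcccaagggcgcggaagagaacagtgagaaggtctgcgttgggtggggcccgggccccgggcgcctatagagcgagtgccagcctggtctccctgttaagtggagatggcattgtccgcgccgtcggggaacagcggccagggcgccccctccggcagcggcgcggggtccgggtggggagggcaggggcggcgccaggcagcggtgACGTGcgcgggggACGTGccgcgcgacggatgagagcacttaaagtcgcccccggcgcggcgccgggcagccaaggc
Bnip3, chr7:138909457-138909756, minus strand: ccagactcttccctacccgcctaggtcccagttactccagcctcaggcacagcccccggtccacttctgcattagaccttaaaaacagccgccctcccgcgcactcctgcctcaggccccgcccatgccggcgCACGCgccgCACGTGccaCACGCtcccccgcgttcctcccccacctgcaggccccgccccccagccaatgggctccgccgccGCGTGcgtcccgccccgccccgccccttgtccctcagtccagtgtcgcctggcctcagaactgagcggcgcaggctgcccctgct
Adm, chr7:110627407-110627706, plus strand: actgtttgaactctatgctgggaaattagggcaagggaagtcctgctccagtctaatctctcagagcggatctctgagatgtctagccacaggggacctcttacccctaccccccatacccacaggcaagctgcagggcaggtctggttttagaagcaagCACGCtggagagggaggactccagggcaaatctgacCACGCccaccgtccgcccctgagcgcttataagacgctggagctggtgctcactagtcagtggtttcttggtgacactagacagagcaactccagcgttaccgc
Vegfa, chr17:46032328-46032627, minus strand: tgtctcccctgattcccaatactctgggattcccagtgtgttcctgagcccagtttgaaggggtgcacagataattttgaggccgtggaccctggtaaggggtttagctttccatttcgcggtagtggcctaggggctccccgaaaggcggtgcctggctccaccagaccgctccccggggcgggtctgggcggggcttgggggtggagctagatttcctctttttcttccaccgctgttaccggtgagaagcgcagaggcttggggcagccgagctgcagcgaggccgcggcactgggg

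The lactate exporter gene Slc16a3 had 2 matches, 27 and 14 bases before the start used for its window, which lies inside the gene. Bnip3 had 5, of which an overlapping pair forms the E-box, and Egln3 had 1 match, 229 bases before its start. Adm had 2 matches, and in the printed Vegfa window these letters did not occur, while the other Vegfa window in the table held matches. Among the 26 HIF target genes with at least 1 entry, 25 (96.2%) held a match in a promoter window, against 64.1% of the tested genes with an entry and 46.7% of all genes in the table. Counted by window the shares were 81.6% of 38 windows for HIF target genes, 58.3% of windows of tested genes and 43.8% of all windows. The share for all 107 genes called higher with an entry was 66.4%, and that for the 14 genes called lower was 42.9%. A match is a string of letters and not a measured site.

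Glycolytic genes had mostly small positive fold changes in OIR, and how many passed the test depended on the fit. Of 20 tested genes of glycolysis and lactate handling 2 were called higher, against 0.723% of all tested genes, and 0 lower. The median log2 fold change was 0.50, and in 18 both OIR libraries lay above both controls, against 19.7% of all tested genes. DESeq2 called 7 of the 20 and the fit to the P14 libraries alone 11. Pfkp, a phosphofructokinase that commits glucose to glycolysis, was at 690 and 778 CPM in OIR, against 362 and 367 CPM in controls, and rose by 1.01 (SE 0.145, adjusted p = 0.00174). Pgam1, a phosphoglycerate mutase, was at 244 and 225 CPM in OIR, against 156 and 150 CPM in controls, and rose by 0.62 (SE 0.138, adjusted p = 0.0439). The next 3 by p had values apart in the same direction but were not called. Pgk1 was at 173 and 159 CPM in OIR against 115 and 96.1 CPM in controls (adjusted p = 0.0962). Gapdh was at 1657 and 1988 CPM in OIR against 1217 and 982 CPM in controls (adjusted p = 0.112). Tpi1 was at 590 and 558 CPM in OIR against 351 and 342 CPM in controls (adjusted p = 0.126). The call of Pgam1 ended without any of the 4 P14 libraries (adjusted p from 0.0780 to 0.354) and in 6 of the 12 fits without a library of a later age (0.0510 to 0.0683), while that of Pfkp held in all 16. Near-identical copies share reads with these enzymes, and the pseudogenes Pgk1-rs7 and Pgam1-ps2, named after their values were seen, were also called, with log2 fold changes of 0.80 and 0.73.

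Of the genes of the respiratory chain 0 of 20 were called, against 0.819% of all tested genes, with a median of -0.02. Ndufs1, a core subunit of complex I, was at 78.2 and 76.6 CPM in OIR, against 86.8 and 82.2 CPM in controls (log2 fold change -0.13, adjusted p = 0.811). Both OIR libraries lay above both controls in 0 of the 20 and below both in 6, against 19.7% and 23.4% of all tested genes.

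Among secreted vascular factors 6 of 20 were called higher, against 0.723% of all tested genes, and 0 lower. The median log2 fold change was 0.41. Vegfa, the chief growth factor for new vessels, was at 597 and 592 CPM in OIR, against 254 and 277 CPM in controls, and rose by 1.16 (SE 0.185, adjusted p = 0.00465). Apln, a peptide of sprouting endothelial cells, was at 57.5 and 43.4 CPM in OIR, against 9.01 and 9.68 CPM in controls, and rose by 2.43 (SE 0.284, adjusted p = 0.00123). The basic fibroblast growth factor gene Fgf2 was at 6.51 and 7.93 CPM in OIR, against 2.04 and 2.43 CPM in controls, and rose by 1.69 (SE 0.301, adjusted p = 0.0108). These 3 genes had groups well apart. Fgf2 overlaps an antisense gene whose reads cannot be told apart where the use of strand in counting is unknown.

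Edn2, an endothelin made by injured photoreceptors in rodents, had 249 and 309 reads in OIR, against 2 and 5 reads in controls. Over both libraries of a group its level was 94.9 times higher in OIR (exact 95% interval 45.8 to 237, counting error only; adjusted p = 0.00288). Angpt2, which loosens vessel walls, was at 14.5 and 11.3 CPM in OIR, against 7.07 and 6.62 CPM in controls, and was not called (log2 fold change 0.91, SE 0.255, adjusted p = 0.147). Vegfa lost its call when either control was left out (adjusted p = 0.0819 without replicate 1 and 0.0524 without replicate 2), as did Fgf2 (0.142 and 0.0918) and Edn2 lost it without control replicate 2 (0.0522; log2 fold change 7.25, against 6.51 with all libraries), whereas the call of Apln held in all 16 fits. Fewer of the 20 ligand genes were called without OIR replicate 1 or either control, fits with fewer calls over all genes.

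Of the receptors for these factors 0 of 20 were called, against 0.819% of all tested genes, with a median of 0.13. Kdr, the main VEGF receptor of endothelium, was at 189 and 217 CPM in OIR, against 259 and 226 CPM in controls (log2 fold change -0.25, adjusted p = 0.465). Flt4, a VEGF receptor of lymphatic and sprouting endothelium, was at 17.4 and 14.6 CPM in OIR, against 11.9 and 10.7 CPM in controls (log2 fold change 0.50, adjusted p = 0.167).

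**Figure D3:**
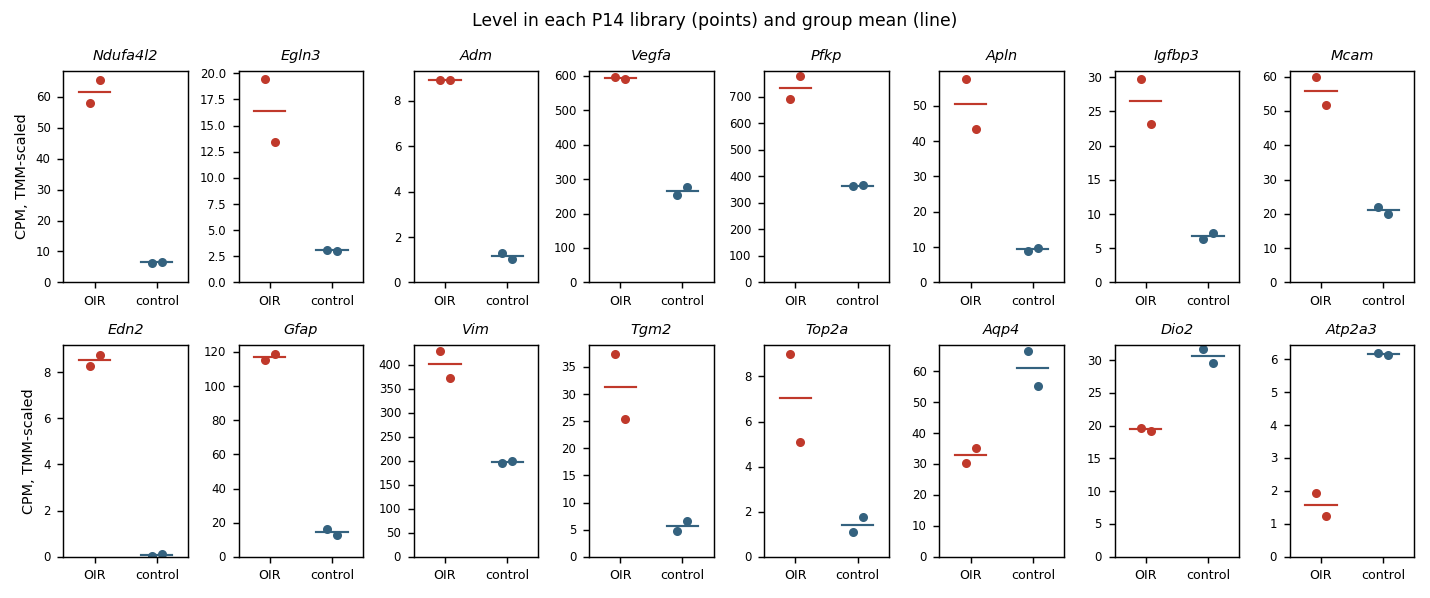
Level of 16 genes in each P14 library (points, CPM scaled by TMM factors, axes from 0) with the mean of each pair (line), OIR in red and control in blue. The first 13 genes lie higher in both OIR libraries, and Aqp4, Dio2 and Atp2a3 lie lower in both.

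Genes of endothelial tip cells, the leading cells of vessel sprouts, and of Notch signalling, which limits their number, were called higher in 9 of 22. Over all tested genes the share called higher was 0.723%. The Notch genes Dll4, Jag1, Notch1, Notch4, Hey1, Hey2, Hes1 and Nrarp were not among those called. Their log2 fold changes ran from -0.12 for Hes1 to 0.66 for Notch4. Of the 22 genes 0 were called lower, and the median log2 fold change was 0.79. Igfbp3, which binds insulin-like growth factors, was at 29.8 and 23.1 CPM in OIR, against 6.32 and 7.23 CPM in controls, and had the smallest adjusted p of all genes named here (log2 fold change 1.96, SE 0.190, adjusted p = 0.000133). Mcam, an adhesion molecule of endothelium and mural cells, was at 59.8 and 51.7 CPM in OIR, against 22.1 and 20.04 CPM in controls, and rose by 1.40 (SE 0.151, adjusted p = 0.000213). The netrin receptor gene Unc5b was at 58.2 and 47.1 CPM in OIR, against 25.6 and 26.9 CPM in controls, and rose by 1.00 (SE 0.178, adjusted p = 0.0101). In each, OIR replicate 1 gave the highest value and the controls were close to each other.

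Plaur, the receptor of urokinase, had 81 and 60 reads in OIR, against 12 and 15 reads in controls, and rose by 2.65 (SE 0.483, adjusted p = 0.0110). Esm1, a secreted marker of tip cells, had 122 and 86 reads in OIR, against 1 and 13 reads in controls. Its level over both libraries was 17.7 times higher in OIR (exact 95% interval 10.3 to 32.9, counting error only; adjusted p = 0.0157). The controls thus differed strongly in Esm1, and its call ended without control replicate 1 (log2 fold change 3.28, against 4.14 with all libraries and 6.76 without control replicate 2; adjusted p = 0.126) or OIR replicate 1 (3.74; adjusted p = 0.129). Calls also ended for Unc5b and Plaur without any P14 library but OIR replicate 2. In these fits fewer tip and Notch genes were called, as were fewer genes in all. The calls of Igfbp3 and Mcam held in all 16 fits without 1 library.

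General endothelial markers were not called, in either direction, for any of 20, against 0.819% of all tested genes, with a median of 0.12. Fewer cells of a type and less RNA per cell cannot be told apart in such whole-tissue RNA. Pecam1, an adhesion molecule of all endothelium, was at 43.2 and 38.1 CPM in OIR, against 25.97 and 23.8 CPM in controls (log2 fold change 0.71, SE 0.173, adjusted p = 0.0740). Slco1a4, an anion transporter of barrier capillaries, was at 7.61 and 5.83 CPM in OIR, against 12.5 and 12.0 CPM in controls (log2 fold change -0.87, SE 0.205, adjusted p = 0.0599). Both OIR libraries lay above both controls in 7 of the 20 and below both in 6, against 19.7% and 23.4% of all tested genes.

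Pericyte and smooth muscle genes were called in 0 of 13, against 0.819% of all tested genes, with a median of -0.14. The potassium channel subunit genes Kcnj8 and Abcc9, which mark pericytes, had lower values in OIR. Kcnj8 was at 4.68 and 4.19 CPM in OIR against 8.22 and 7.18 CPM in controls (log2 fold change -0.80, SE 0.187, adjusted p = 0.0560). Abcc9 was at 10.1 and 11.7 CPM in OIR against 19.1 and 19.3 CPM in controls (log2 fold change -0.82, SE 0.223, adjusted p = 0.120). Cspg4, a proteoglycan of young pericytes, had the opposite sign, with 17.9 CPM in each OIR library against 10.2 and 11.5 CPM in controls (adjusted p = 0.167). Atp13a5, known from mouse brain pericytes, and Gkn3, known from mouse brain arteries, were picked with their values already known. Atp13a5 had 10 and 27 reads in OIR against 91 and 75 in controls (log2 fold change -1.93, adjusted p = 0.0176), and Gkn3 had 1 and 2 reads in OIR against 27 and 32 in controls (adjusted p = 0.0108). Both calls ended without OIR replicate 1 (adjusted p = 0.274 and 0.161) and without control replicate 2 (0.0636 and 0.0743), that of Atp13a5 also without control replicate 1 (0.142) and that of Gkn3 without OIR replicate 2 (0.0565).

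Reactive glia genes were called higher in 8 of 23, against 0.723% of all tested genes, and lower in 0. The median log2 fold change was 1.00. The intermediate filament gene Gfap, which Müller cells switch on after injury, was at 115 and 119 CPM in OIR, against 16.4 and 12.7 CPM in controls, and rose by 3.01 (SE 0.416, adjusted p = 0.00698). Vim, the filament of resting Müller cells, was at 430 and 374 CPM in OIR, against 195 and 200 CPM in controls, and rose by 1.02 (SE 0.150, adjusted p = 0.00213). Nes, a filament of progenitors and injured glia, was at 33.1 and 24.1 CPM in OIR, against 11.2 and 11.1 CPM in controls, and rose by 1.36 (SE 0.186, adjusted p = 0.00145). All 3 filament genes separated the groups clearly.

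Cp, the copper protein ceruloplasmin, was at 105 and 101 CPM in OIR, against 75.6 and 70.5 CPM in controls, a rise of only 0.50 (SE 0.112, adjusted p = 0.0440). The remaining called members of the list were Edn2 and Fgf2, and Stat3 and Osmr of the gp130 cytokine pathway. Edn2, described above as made by photoreceptors, and Fgf2 were also counted among the secreted vascular factors. Without control replicate 1 or 2 the call of Gfap ended (adjusted p = 0.0550 and 0.0937) and the list had 3 and 2 called members. That of Cp ended in 10 of the 16 fits (0.0535 to 0.336), and those of Vim and Nes held in all 16.

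Markers of the working Müller cell showed another pattern, with 1 of 20 called higher (Vim) and 2 lower, against 0.0955% of all genes lower, and a median of -0.08. Aqp4, the water channel of Müller end-feet, was at 30.3 and 35.2 CPM in OIR, against 66.7 and 55.4 CPM in controls, and fell by 0.90 on the log2 scale (SE 0.143, adjusted p = 0.00433). Dio2, which activates thyroid hormone, was at 19.7 and 19.2 CPM in OIR, against 31.7 and 29.5 CPM in controls, and fell by 0.65 on the log2 scale (SE 0.124, adjusted p = 0.0139). Glul, the glutamine synthetase that clears glutamate, was at 1110 and 1173 CPM in OIR, against 1556 and 1513 CPM in controls, and was not called (log2 fold change -0.43, SE 0.124, adjusted p = 0.158). The call of Aqp4 ended without control replicate 1 (adjusted p = 0.0784) or OIR replicate 1 (0.107), and that of Dio2 without any of the 4 P14 libraries (0.0734 to 0.141). Astrocyte markers were called in 0 of 10, against 0.819% of all tested genes, with a median of -0.14.

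Microglia and macrophage markers were called in 0 of 20, against 0.819% of all tested genes, with a median of 0.28. C1qb, a complement subunit made by microglia, was at 15.98 and 13.7 CPM in OIR, against 10.3 and 10.2 CPM in controls (log2 fold change 0.54, adjusted p = 0.505), and the galectin gene Lgals3 was at 7.34 and 3.93 CPM in OIR, against 1.10 and 2.78 CPM in controls (adjusted p = 0.210). Within the list of chemokines and cytokines, however, 3 of 17 were called higher, against 0.723% of all tested genes, and 0 lower. The inflammatory cytokine gene Tnf had 19 and 15 reads in OIR and 0 reads in both controls. Against a floor of 3 reads over the control pair, its level was 13.5-fold higher in OIR (adjusted p = 0.0113). The exact 95% interval of its ratio began lower, at 10.4 (counting error only). Ccl3 had 16 and 28 reads in OIR, against 1 and 4 in controls, 10.5 times more after scaling (exact 95% interval 4.17 to 33.9; adjusted p = 0.0366). Ccl4 had 22 and 13 reads in OIR, against 0 and 1 in controls, 41.7 times more (exact 95% interval 7.00 to 1692; adjusted p = 0.0445). These 3 genes are known as early products of activated microglia and macrophages, and they rest on few reads. The fitted log2 fold change of Ccl3 was 3.30 with all libraries, and it was 2.67 when control replicate 1 and 4.48 when control replicate 2 was left out. That of Ccl4 was 5.05, 4.24 and 7.19 in the same fits. The list had 0 called members without OIR replicate 1 or either control and 2 without OIR replicate 2, with adjusted p values of 0.107 to 0.419 for the 3 genes where their calls ended, and the calls of Ccl3 and Ccl4 also ended in 4 and 6 fits without a library of a later age (0.0506 to 0.0661).

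Complement genes were called in 1 of 14 and genes of interferon response and antigen presentation in 1 of 24, against 0.819% of all tested genes. Their medians were 0.47 and 0.08. C3, the central complement component, was at 4.45 and 4.44 CPM in OIR, against 1.38 and 1.26 CPM in controls, and rose by 1.75 (SE 0.350, adjusted p = 0.0218). H2-K1, a class I histocompatibility chain, was at 32.9 and 29.6 CPM in OIR, against 9.87 and 15.4 CPM in controls, and rose by 1.31 (SE 0.252, adjusted p = 0.0246). H2-Ab1, a class II chain of antigen-presenting cells outside these lists, was among the largest rises, at 10.1 and 8.01 CPM in OIR against 1.10 and 1.29 CPM in controls (log2 fold change 2.92, SE 0.430, adjusted p = 0.00417). Histocompatibility genes are similar to each other and may share reads. The call of C3 ended without any P14 library (adjusted p = 0.0585 to 0.196), that of H2-K1 without control replicate 1 or OIR replicate 1 (0.233 and 0.199) and that of H2-Ab1 without control replicate 1 or 2 (0.0691 and 0.0594).

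Few genes of vessel wall remodelling were called. Plat, the tissue plasminogen activator, was at 34.1 and 29.0 CPM in OIR, against 18.7 and 21.5 CPM in controls, and was not called (log2 fold change 0.65, SE 0.153, adjusted p = 0.0591). Among basement membrane and matrix genes 1 of 25 was called, against 0.819% of all tested genes, with a median of 0.37. Lama4, a laminin chain of vessels, was at 33.8 and 33.4 CPM in OIR, against 19.7 and 19.4 CPM in controls, and rose by 0.78 (SE 0.179, adjusted p = 0.0484). Fn1, which encodes fibronectin, was at 288 and 328 CPM in OIR, against 163 and 166 CPM in controls (adjusted p = 0.170). Of 10 genes of insulin-like growth factors and their binding proteins 1, Igfbp3, was called, against 0.819% of all tested genes. Igf1 was at 29.4 and 25.6 CPM in OIR against 34.8 and 43.5 CPM in controls (log2 fold change -0.51, adjusted p = 0.0959). The call of Lama4 ended in 10 of the 16 fits (adjusted p = 0.0570 to 0.294) and with the scaling of DESeq2 (0.0512).

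All 25 tested cell division genes had a positive fold change, as did 9375 of all 19905 tested genes. The list's median log2 fold change was 0.90, and 3 of its members were called higher, against 0.723% of all tested genes. Top2a, a topoisomerase of dividing cells, was at 9.004 and 5.09 CPM in OIR, against 1.10 and 1.74 CPM in controls, and rose by 2.30 (SE 0.404, adjusted p = 0.0101). Cdk1, the kinase that starts mitosis, was at 4.85 and 3.48 CPM in OIR, against 0.861 and 1.24 CPM in controls, and rose by 1.98 (SE 0.368, adjusted p = 0.0124). Mcm3, a part of the replication helicase, was at 8.84 and 5.55 CPM in OIR, against 3.76 and 3.13 CPM in controls, and rose by 1.06 (SE 0.233, adjusted p = 0.0396). OIR replicate 1, which held the corneal and conjunctival RNA, was the higher OIR library in all 3. Without it 0 members were called, with log2 fold changes of 1.84, 1.72 and 0.69 for Top2a, Cdk1 and Mcm3 (adjusted p = 0.137, 0.158 and 0.556), and 0 were called without control replicate 1 or control replicate 2, against 4 without OIR replicate 2. The call of Mcm3 also ended in 5 fits without a library of a later age (0.0526 to 0.0623).

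Inhibitors of the cell cycle and p53 targets were called in 0 of 24, against 0.819% of all tested genes, with a median of 0.04. Cdkn1a, which encodes p21, was at 26.3 and 23.3 CPM in OIR, against 12.6 and 11.3 CPM in controls (log2 fold change 1.06, SE 0.262, adjusted p = 0.0936). Cdkn2a, the locus of p16 and p19Arf, had 12 and 10 reads in OIR, against 0 and 5 reads in controls (adjusted p = 0.316).

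Immediate early genes, which neurons and glia switch on within minutes of a stimulus, were called higher in 2 of 22. Over all tested genes the share was 0.723%, and the list's median was 0.49. Nr4a1, an orphan nuclear receptor, was at 66.5 and 68.8 CPM in OIR, against 29.6 and 29.8 CPM in controls, and rose by 1.19 (SE 0.242, adjusted p = 0.0337). Egr2, a zinc finger transcription factor, had 30 and 34 reads in OIR, against 0 and 3 reads in controls, 25.4 times more after scaling (exact 95% interval 8.31 to 126; adjusted p = 0.0108). Fos was at 36.6 and 38.9 CPM in OIR, against 17.4 and 20.3 CPM in controls (log2 fold change 1.00, SE 0.279, adjusted p = 0.162). Among genes that respond to protein damage, 1 of 14 heat shock chaperones and 0 of 22 genes of the unfolded protein and amino acid response were called. Their medians were 0.05 and 0.10, and 0.819% of all tested genes were called. Bag3, a co-chaperone of selective autophagy, was at 18.9 and 14.4 CPM in OIR, against 7.10 and 7.33 CPM in controls, and rose by 1.21 (SE 0.225, adjusted p = 0.0137). Among 19 genes of metal handling and oxidant defence only Cp was called. The metallothionein genes Mt1 and Mt2 were not, with Mt1 at 53.2 and 71.7 CPM in OIR against 25.1 and 31.1 CPM in controls (adjusted p = 0.210) and Mt2 at 21.9 and 18.9 CPM in OIR against 6.34 and 7.83 CPM in controls (adjusted p = 0.160). The fitted log2 fold change of Egr2 was 4.54 with all libraries, and it was 3.62 when control replicate 1 and 8.04 when control replicate 2 was left out. The calls of Egr2 and Bag3 ended without OIR replicate 1 or either control (adjusted p = 0.0516 to 0.199), and that of Nr4a1 in 12 of the 16 fits (0.0507 to 0.237).

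**Figure D4:**
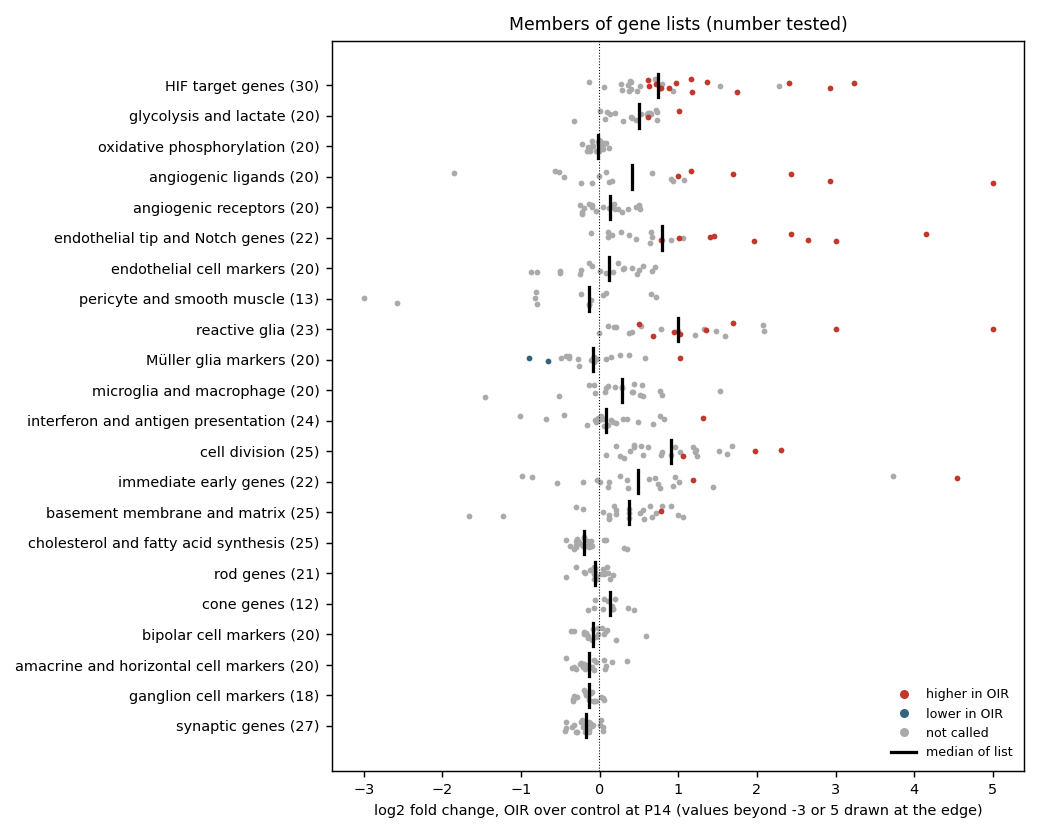
Log2 fold change of OIR over control at P14 for the tested members of 22 gene lists, with called genes in red (higher) or blue (lower), others in grey, and a bar at the list's median. The medians lie between 0.41 and 1.00 for HIF targets, glycolysis, angiogenic ligands, tip cell genes, reactive glia, cell division and immediate early genes, and between -0.20 and 0.13 for the neuronal, photoreceptor and cholesterol lists.

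Lists of neuronal and photoreceptor identity had no called member at P14, where 0.819% of all tested genes were called. DESeq2 called 1 member each of the bipolar, ganglion cell and synaptic lists, and the fit to the P14 libraries alone 1 each of the rod, cone, bipolar and synaptic lists. For the photoreceptors 0 of 21 rod genes, 0 of 12 cone genes and 0 of 12 photoreceptor transcription factors were called, with medians of -0.06, 0.13 and -0.02. The short-wave cone opsin gene Opn1sw was at 328 and 324 CPM in OIR, against 319 and 252 CPM in controls (adjusted p = 0.805). For the inner retina 0 of 20 bipolar, 0 of 20 amacrine and horizontal, 0 of 18 ganglion cell and 0 of 27 synaptic genes were called, with medians of -0.09, -0.14, -0.14 and -0.18. In 18 of the 27 synaptic genes and 12 of the 20 amacrine and horizontal genes both OIR libraries lay below both controls, against 23.4% of all tested genes. Syn1, a synaptic vesicle protein, was at 144 and 139 CPM in OIR, against 192 and 168 CPM in controls (log2 fold change -0.35, SE 0.112, adjusted p = 0.226). Gad1, which makes GABA, was at 195 and 196 CPM in OIR, against 266 and 225 CPM in controls (log2 fold change -0.33, adjusted p = 0.289). The neurofilament gene Nefm of ganglion cell axons was at 240 and 220 CPM in OIR, against 312 and 265 CPM in controls (log2 fold change -0.33, adjusted p = 0.171). The bipolar cell regulator Rgs11, which speeds the light response, had the opposite sign, at 208 and 191 CPM in OIR against 122 and 143 CPM in controls (log2 fold change 0.59, SE 0.137, adjusted p = 0.0548). Simulated 1.5-fold changes were recovered in 19.4% of genes in this comparison, so differences as small as these were mostly beyond what 2 libraries a group can detect.

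Of the 19 genes called lower, 9 more are described here beside Aqp4, Dio2, Gkn3 and Atp13a5. Atp2a3, a calcium pump of the endoplasmic reticulum, was at 1.93 and 1.25 CPM in OIR, against 6.19 and 6.11 CPM in controls, and fell by 1.96 on the log2 scale (SE 0.231, adjusted p = 0.000402). Of 18 calcium pump and store genes it was the 1 that was called, against 0.819% of all tested genes, and the list's median was -0.15. Gabra4, a subunit of the GABA-A receptor, was at 3.65 and 4.47 CPM in OIR, against 8.51 and 8.19 CPM in controls, and fell by 1.04 (SE 0.177, adjusted p = 0.00722). The receptor genes P2rx2, gated by ATP, and Chrm2, for acetylcholine, fell by 1.04 and 0.66 (adjusted p = 0.0254 and 0.0413). Casq2, a calcium-binding protein of muscle stores, had 37 and 30 reads in OIR against 87 and 97 in controls (log2 fold change -1.19, adjusted p = 0.0293).

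Enpp2, the enzyme autotaxin that makes lysophosphatidic acid, was at 52.96 and 47.4 CPM in OIR, against 95.0 and 79.0 CPM in controls, and fell by 0.79 (SE 0.147, adjusted p = 0.0122). Vcam1, an adhesion molecule for leukocytes, was at 21.9 and 19.5 CPM in OIR, against 38.9 and 30.0 CPM in controls, and fell by 0.74 (SE 0.159, adjusted p = 0.0348). Fgf10, a fibroblast growth factor, and BC055402 fell by 1.25 and 1.45 (adjusted p = 0.0471 and 0.0198). The OIR libraries lay below both controls in each of these genes. Atp2a3 held its call in all 16 fits. The other 8 lost it without OIR replicate 1 and without control replicate 1, fits that leave 1 library in a group. Fgf10, Casq2, P2rx2 and Chrm2 also lost it without OIR replicate 2 and without control replicate 2. Enpp2 and Vcam1 lost it without OIR replicate 2, and BC055402 and Gabra4 without control replicate 2. Calls of Fgf10, Chrm2 and Vcam1 also ended in some fits without a library of a later age (adjusted p from 0.0503 to 0.0677).

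Some of the largest rises lay outside the pathways above. Gipr, the receptor of the gut hormone GIP, was at 13.2 and 9.17 CPM in OIR, against 1.04 and 1.14 CPM in controls, and rose by 3.35 (SE 0.435, adjusted p = 0.00123). Lad1, a protein of epithelial anchoring filaments, was at 7.64 and 4.08 CPM in OIR, against 0.522 and 0.606 CPM in controls, and rose by 3.36 (SE 0.458, adjusted p = 0.00179). Ecel1, an endopeptidase known to rise in injured neurons of rodents, was at 8.31 and 5.55 CPM in OIR, against 0.861 and 0.834 CPM in controls, and rose by 3.02 (SE 0.370, adjusted p = 0.000616). These 3 genes were higher in OIR replicate 1, the library with corneal and conjunctival RNA, than in OIR replicate 2, and their calls held in all 16 fits without 1 library, though Lad1 was not called by limma-voom (adjusted p = 0.0664).

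Tgm2, a transglutaminase that cross-links matrix proteins, was at 37.4 and 25.3 CPM in OIR, against 4.70 and 6.64 CPM in controls, and rose by 2.46 (SE 0.345, adjusted p = 0.00418). Piwil4, of the Piwi family of small RNA binding proteins, was at 6.71 and 4.50 CPM in OIR, against 1.28 and 0.808 CPM in controls, and rose by 2.42 (SE 0.344, adjusted p = 0.00171). The transcript 2610528A11Rik was at 7.21 and 2.92 CPM in OIR, against 0.470 and 0.808 CPM in controls, and rose by 2.97 (SE 0.426, adjusted p = 0.00231). OIR replicate 1 gave the highest value in each of these 3 genes. The calls of Tgm2 and 2610528A11Rik ended without control replicate 1 (adjusted p = 0.0627 and 0.0516) and that of Piwil4 without control replicate 2 (0.0524).

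The OIR effect at P14 was set against the effects at P17 and P30 from the same fit, with 3 OIR and 3 control libraries at each of those ages. No gene was called for a difference between the effects at P14 and P17 (0 of 19905 by edgeR, 1698 at an unadjusted p under 0.05, among them 5 of the 18 genes followed here). Angpt2 had an OIR effect of 0.91 (SE 0.255) at P14 and 2.32 (SE 0.211) at P17, a difference of -1.41 (SE 0.327, adjusted p = 0.197). Igfbp3 had an effect of 1.96 (SE 0.190) at P14 and 3.03 (SE 0.161) at P17, a difference of -1.06 (SE 0.241, adjusted p = 0.184). Atp2a3 had an effect of -1.96 (SE 0.231) at P14 and -0.88 (SE 0.172) at P17, a difference of -1.08 (SE 0.286, adjusted p = 0.258).

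Against P30, 31 genes (0.156%) differed in their OIR effect, 22 with a higher and 9 with a lower value at P14, including 6 of the 18 genes followed. Igfbp3 had an OIR effect of 1.96 at P14 and -1.01 (SE 0.179) at P30, a difference of 2.98 (SE 0.260, adjusted p = 2.81e-05). Egln3 and Bnip3, raised at P14, had effects of 0.17 (SE 0.220) and 0.07 (SE 0.129) at P30, differences of 2.24 (SE 0.348, adjusted p = 0.0145) and 1.11 (SE 0.205, adjusted p = 0.0347). Cdkn1a had an effect of 1.06 at P14 and -1.06 (SE 0.226) at P30, a difference of 2.11 (SE 0.346, adjusted p = 0.0225). Atp2a3 had an effect of 0.10 (SE 0.172) at P30 and differed by -2.06 (SE 0.287, adjusted p = 0.00513). Dio2 fell at both ages, by 0.65 on the log2 scale at P14 and by 1.86 (SE 0.104) at P30, a difference of 1.21 (SE 0.161, adjusted p = 0.00436). The count of 6 became 3 without control replicate 1, control replicate 2 or OIR replicate 1 at P14 or control replicate 2 at P30.

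**Figure D5:**
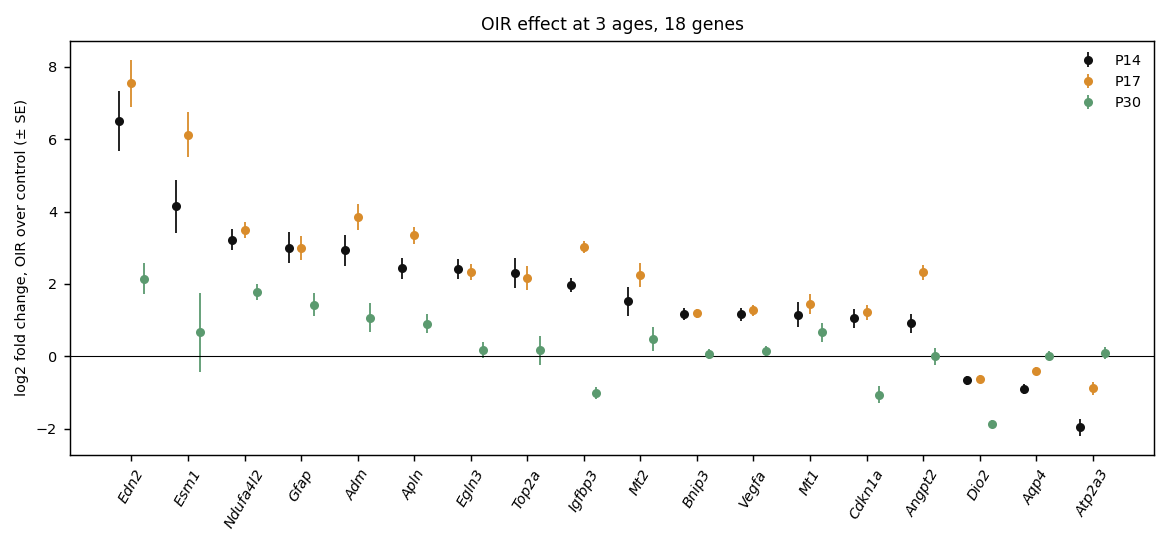
OIR effect (log2 fold change of OIR over control with its SE) for the 18 followed genes at P14, P17 and P30, sorted by the effect at P14. No difference between P14 and P17 was called, and Egln3, Bnip3, Igfbp3, Cdkn1a, Dio2 and Atp2a3 have different effects at P30.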

How the data were processed

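Whole-retina mRNA was extracted with RNeasy columns, selected with Dynabeads and prepared for sequencing (Ion Total RNA-seq Kit v2), per the labels' protocols. Reads were processed in Torrent Suite 5.4.0, aligned with STAR to mm10 and then with Bowtie2, and counted per gene with HTSeq, per the labels' protocols. Which aligner versions, gene annotation and strand option were used is not given in the sources used here. Each deposited table holds raw counts per gene symbol for 1 library. From these, genes passing edgeR's expression filter (count minimum 10, total minimum 15) were fitted with edgeR 4.0.16 in R 4.3.3 (TMM scaling, robust quasi-likelihood fit, 6 groups, 16 libraries, 10 residual degrees of freedom), with Benjamini-Hochberg adjustment over 19905 genes and calls at an adjusted p under 0.05. The later ages thus add to the estimate of spread.

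Members and lists were chosen with earlier results of these data known, so list counts are descriptions. Some genes are on more than 1 list and are counted in each. Named genes were the 16 largest rises and 10 largest falls among called genes of at least 1 log2 CPM with separated groups, up to 5 members with the smallest p of each of 44 lists, and 18 genes set by name. Some of these are not reported here, and Gkn3, Atp13a5 and the pseudogenes lie outside the rule. Intervals are exact at 95%, floors are 3 counts, and both cover counting error only.

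Replicates of a group differed by more than sampling noise (chi-square per degree of freedom 14.3 in OIR and 19.9 in controls). On simulated counts of 19352 genes at P14 the test recovered 77.6% of 2-fold and 95.5% of 4-fold changes, with 3.76% false calls. These counts were drawn with the fit's own spread. They held no lens, corneal, pigment or sex-linked differences confined to single libraries, so the rates do not cover those. Alternatives used DESeq2 1.42.0 and limma 3.58.1. Promoter sequences came from RefSeq.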

Additional observations from a re-analysis of the deposited data

Results flagged for a closer look

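Of the 18 genes followed across ages, 6 had an OIR effect at P14 that differed from the effect at P30 by edgeR's test of the difference itself, adjusted over all genes. The difference (P14 minus P30, log2) was 2.98 for Igfbp3, 2.24 for Egln3, 2.11 for Cdkn1a, 1.21 for Dio2, 1.11 for Bnip3 and -2.06 for Atp2a3. Cdkn1a was not itself called at P14 (adjusted p = 0.0936) and Dio2 was lower in OIR at both ages. With 2 libraries a group, no P14 library could be examined for standing apart from its own group.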

How the results depend on the processing

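All 163 called genes kept their direction in every alternative that fitted them. That was all alternatives but the stricter filter of at least 50 counts in 2 libraries, where 154 of 154 did. As both OIR libraries lay beyond both controls in all 163, leaving out a library could hardly reverse a direction. The number called depended on the processing. Against 144 genes higher and 19 lower, there were 507 and 170 with no count filter, 278 and 97 with DESeq2, 250 and 32 with the P14 libraries alone, 49 and 3 at an adjusted p under 0.01, and 30 and 2 when tested against a 1.5-fold change. A lens covariate gave 63 and 10 and a Y-linked covariate 88 and 9. Leaving out 1 library at a time gave 34 to 218 higher and 2 to 37 lower genes. Outside P14, the lower count moved by over 1.5 times without control replicate 2 at P30 (12) and OIR replicate 3 at P30 (37). Of the 53 called genes that could be named, 14 kept the call in all 16 of these fits. The replicate block gave 99 and 11, and the numbers did not pair the libraries, since deviations of same-numbered P14 libraries correlated at -0.05 over 10620 genes. Of the 18 genes followed, 5 differed between P14 and P17 with no count filter and 3 with DESeq2, against 0. Between P14 and P30 the count was 17 and 13 under these alternatives, 5 with the replicate block and 3 in the lowest fit without 1 library, against 6. The cause of these shifts was not tested.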

Other observations

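Several gene groups had few or no called members at P14, where 0.819% of all tested genes were called. Of 25 genes of cholesterol and fatty acid synthesis 0 were called, but in 20 both OIR libraries lay below both controls, against 23.4% of all tested genes, with a median log2 fold change of -0.20. Among 11 genes of the thyroid hormone system only Dio2 was called, with a median of 0.05. Of 17 clock genes 0 were called (median -0.03), and Hlf, a clock-controlled transcription factor, was at 128 and 122 CPM in OIR, against 168 and 154 CPM in controls (adjusted p = 0.102). Of 14 retinal neuropeptide genes 0 were called (median -0.14), with Cck, the cholecystokinin gene, at 47 and 72 reads in OIR against 127 and 154 in controls (adjusted p = 0.158). Of 19 potassium channel genes 0 were called (median -0.09).

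Red blood cell genes summed to 235 and 124 CPM in OIR, against 47.3 and 94.9 CPM in controls, with 0 of 6 called. Skeletal muscle genes summed to 15.4 and 14.6 CPM in OIR, against 11.3 and 15.5 CPM in controls, with 0 of 10 called.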
